A study of Mus musculus with 8 samples.

Results

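Liver-enriched transcription factors are the 8 genes Hnf4a, Foxa1, Foxa2, Foxa3, Onecut1, Onecut2, Cebpa and Cebpb, taken by name from the HNF4, FOXA, ONECUT and C/EBP families. The rule uses no measured value, but earlier results of these data were known when the genes were chosen. All 8 were found among the 14317 mouse genes of the table, and all 8 passed the filter on low values that left 14312 genes for testing. The livers came from female mice whose genotype is labelled WT and which were on a western diet (WD) rich in palm oil, fructose and cholesterol for 8.5 weeks. The 4 Con-Veh mice had empty silastic pellets and the 4 Con-DHT mice had 10 mm pellets of dihydrotestosterone (DHT), an androgen that is not converted to estrogen. Pellets were implanted at 7 weeks of age and replaced every 4 weeks. The question was how androgen excess changes the transcriptome of the female liver.

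Hepatocytes owe their identity to a small set of transcription factors that bind each other's genes and many of the same enhancers. HNF4A is a nuclear receptor, the FOXA proteins are pioneer factors that open chromatin, the ONECUT proteins are cut-homeodomain factors that act in hepatocyte and bile duct development, and the C/EBP proteins are leucine zipper factors, of which C/EBPα is tied to energy metabolism and C/EBPβ to the acute phase response. Several of them bind beside STAT5, the mediator of growth hormone, at genes that differ between male and female livers.

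Each liver gave 1 library, with 14240001 to 17815944 reads on mouse genes in Con-Veh and 13123962 to 15205299 in Con-DHT. Values are normalized counts, which are reads divided by a size factor of the library, and 3 reads correspond to between 2.61 and 3.30 of them. Con-Veh 1 and Con-Veh 2 stood apart from the other Con-Veh libraries in acute phase transcripts, a pattern chosen after its values were seen. Saa1, which encodes serum amyloid A, was at 5476 and 19178 in them and at 337 and 277 in Con-Veh 3 and Con-Veh 4. The same 2 libraries had lower summed stellate cell markers, at 1708 and 1625 against 4058 and 3180. In all, limma found 1032 of 14312 genes (7.21%) changed at an adjusted p of at most 0.05, with 658 increases (4.6%) and 374 decreases (2.61%) in Con-DHT. Leaving out Con-Veh 2, Con-Veh 4, Con-DHT 1 or Con-DHT 2 lowered this count by more than a factor of 1.5, to 649, 638, 651 and 653.

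Foxa2 was the 1 of the 8 factors that changed with DHT, where its mean fell by 30.9%. The other 7 did not pass the test, with log2 fold changes between -0.23 for Hnf4a and 0.33 for Foxa1. Thus 1 of 8 members was called (lower) and none was called higher, beside 2.61% and 4.6% of all tested genes. The median log2 fold change of the members was 0.17, that of all tested genes was -0.01, and 6 of the 8 values were above 0. With 4 mice per group, an adjusted p above 0.05 does not show that a gene was the same in both groups, so the 95% interval is given for each. The limma p-values set the difference between groups against the spread between mice of a group. That spread is adjusted by a trend taken over all tested genes.

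The members differed widely in abundance. Levels of different genes are compared here as normalized counts per kb of exon, a measure of level, with exon lengths from GENCODE M21. Over the 8 libraries Cebpa averaged 3761 per kb, Hnf4a 2982 and Cebpb 1476, which placed them above 98.7%, 98.4% and 96.8% of the tested genes with an exon length. Foxa3 followed with 429 per kb, Foxa2 with 239 and Foxa1 with 117, then Onecut2 with 98.4 and Onecut1 with 29.6. The median over 14287 genes was 46.6 per kb, so that Onecut1 alone of the 8 lay below the middle of the tested genes, at the 39.1 percentile. This level is per kb of all 4113 exon bases of Onecut1, of which 2171 are shared with the lincRNA Gm20649. If reads in shared bases were not counted, the level and percentile of Onecut1 are understated. Neighbours in this order overlapped for Cebpa (2775 to 4546 per kb) with Hnf4a (2371 to 3415), and for Foxa1 (89.5 to 139) with Onecut2 (86.0 to 107). The 8 values of each other neighbouring pair did not overlap.

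**Figure D1:**
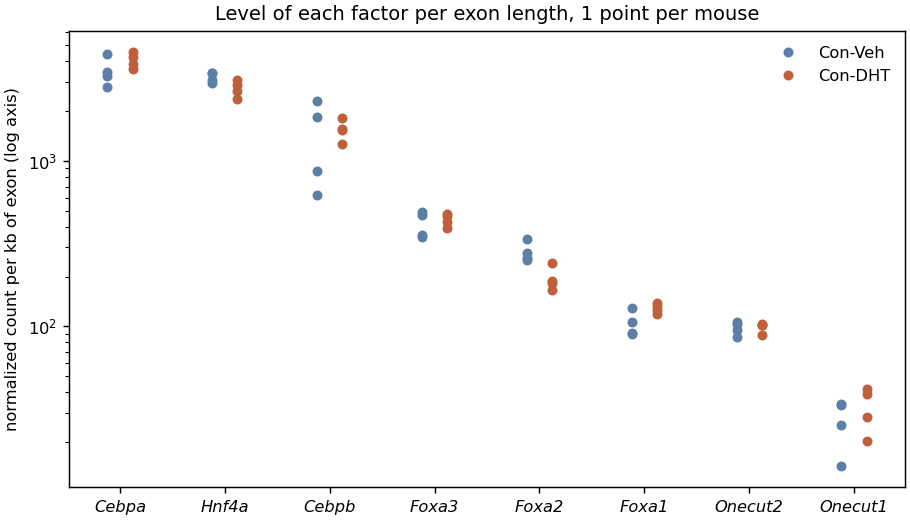
Normalized count per kb of exon (log axis) of each factor, with 1 point per mouse (4 Con-Veh, 4 Con-DHT). Cebpa, Hnf4a and Cebpb lay at or above 624 per kb in every liver, whereas Onecut1 stayed between 14.3 and 41.7 per kb.

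HNF4A drives apolipoprotein, clotting factor and bile acid genes in hepatocytes. Hnf4a (ENSMUSG00000017950, chromosome 2) had normalized counts of 16478, 16487, 14334 and 14845 in Con-Veh 1 to 4 and of 11449, 12686, 13939 and 14945 in Con-DHT 1 to 4. The lowest 3 livers were all Con-DHT, and Con-DHT 4 lay within the Con-Veh range. The mean was 15536 ± 1113 (SD, n = 4) in Con-Veh and 13255 ± 1517 (SD, n = 4) in Con-DHT. The log2 fold change was -0.23 with an SE of 0.11 and a 95% interval from -0.47 to 0.00, and the adjusted p was 0.218 (limma, Benjamini-Hochberg). The interval reached from a fall to 0.723 times the Con-Veh level to 1.00 times.

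The 3 FOXA genes encode forkhead proteins with nearly the same DNA binding domain. Foxa1 (ENSMUSG00000035451, chromosome 12) had normalized counts of 298, 303, 427 and 353 in Con-Veh 1 to 4 and of 421, 394, 444 and 461 in Con-DHT 1 to 4. Con-Veh 3 lay inside the Con-DHT range, and the other 3 Con-Veh livers lay below every Con-DHT liver. The means were 345 ± 60.0 and 429.9 ± 29.1 (SD, n = 4 each), with a log2 fold change of 0.33 (SE 0.12, 95% interval 0.06 to 0.59). The adjusted p was 0.131 (limma, Benjamini-Hochberg), and without Con-Veh 3 it was 0.0348.

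Foxa2 (ENSMUSG00000037025, chromosome 2), whose protein is excluded from the nucleus by insulin signaling, had normalized counts of 662, 599, 799 and 615 in Con-Veh 1 to 4. In Con-DHT 1 to 4 it had 395, 434, 576 and 445. Every Con-DHT liver lay below every Con-Veh liver, although Con-DHT 3 came close to the lowest Con-Veh value. The groups did not overlap in 15.1% of all tested genes, and 6.62% were lower without overlap. The mean was 669 ± 90.5 in Con-Veh and 462 ± 78.4 in Con-DHT (SD, n = 4 each), a log2 fold change of -0.54 with an SE of 0.13 and a 95% interval from -0.82 to -0.25. The adjusted p was 0.0335 with limma, 0.0370 with edgeR and 0.00559 with DESeq2 (all Benjamini-Hochberg), where edgeR called 7.15% and DESeq2 11% of the tested genes. The call was close to the threshold: it was lost in 7 of the 8 fits that each left out 1 library and was kept without Con-DHT 3, with log2 fold changes from -0.65 to -0.45 and adjusted p from 0.0122 to 0.0874. It was also lost when the libraries were scaled by spike-in RNA, with a log2 fold change of -0.34 and an adjusted p of 0.885. Spike-ins took 1.68% to 3.61% of the reads in Con-Veh and 2.22% to 2.75% in Con-DHT, and this scaling carries that spread into every gene. The part of this spread in the lost call was not tested.

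Foxa3 (ENSMUSG00000040891, chromosome 7), the FOXA gene with the highest level per kb in the adult liver here, had 996, 707, 727 and 959 in Con-Veh 1 to 4 and 804, 973, 873 and 952 in Con-DHT 1 to 4. The Con-DHT livers all lay within the Con-Veh range. The means were 847 ± 151 and 900.5 ± 77.2 (SD, n = 4 each), and the log2 fold change was 0.10 (SE 0.12, 95% interval -0.17 to 0.38) with an adjusted p of 0.679 (limma, Benjamini-Hochberg).

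**Figure D2:**
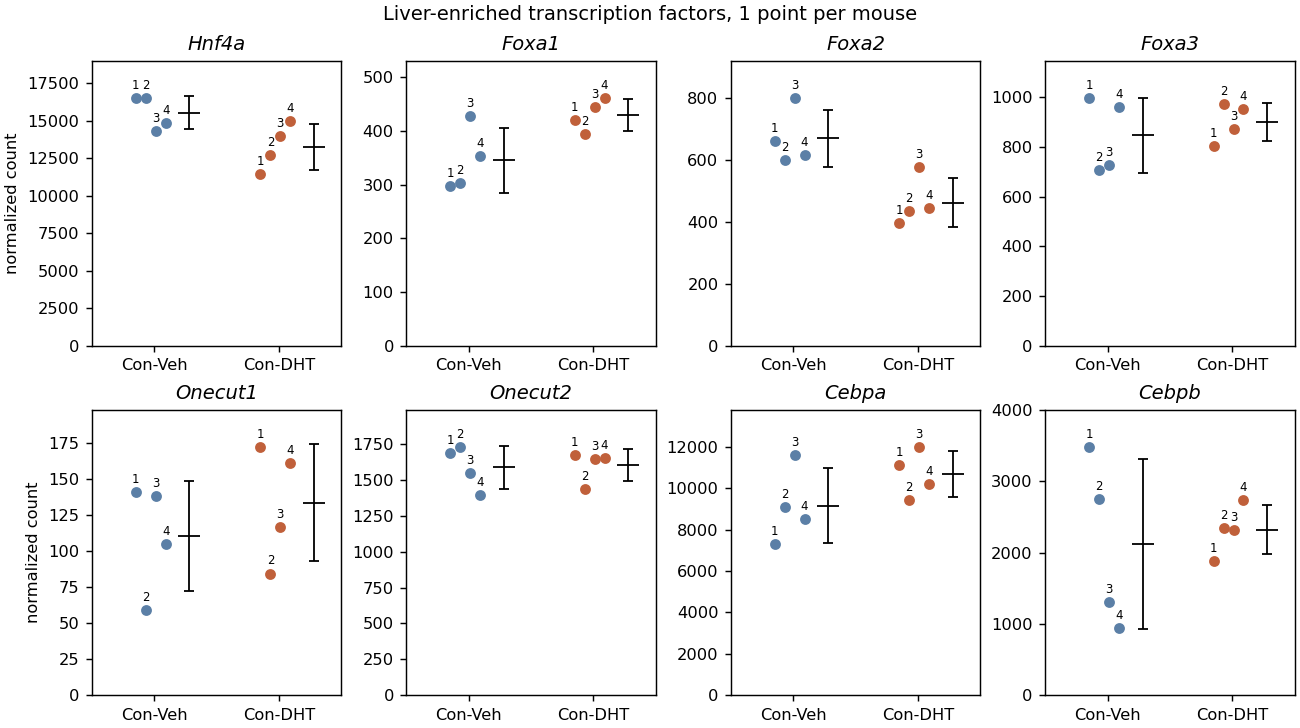
Normalized counts of the 8 factors in each liver, with the replicate number beside each point and the mean and SD of the 4 mice of a group as a black bar; every axis starts at 0. Foxa2 is the only panel in which the groups do not overlap, and the Con-Veh values of Cebpb run from 938 to 3479.

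Foxa1 and Foxa2 differed in opposite directions, and their ratio within a library does not depend on how libraries are scaled to each other. The ratio of Foxa1 to Foxa2 normalized counts was 0.450, 0.506, 0.535 and 0.574 in Con-Veh 1 to 4. It was 1.06, 0.908, 0.771 and 1.04 in Con-DHT 1 to 4. All 4 Con-DHT livers lay above all 4 Con-Veh livers. The mean was 0.516 ± 0.052 in Con-Veh and 0.945 ± 0.134 in Con-DHT (SD, n = 4 each), a 1.82-fold higher ratio and a log2 difference of 0.86 (SE 0.13). The exact two-sided permutation test gave p = 0.0286, the smallest that 4 against 4 allows. Adjusted over 3 ratios, the p of this test was 0.0857 and did not pass the correction. With only 1 ratio at the smallest p, the correction could not be passed, whatever the size of the difference. Without any 1 library the log2 difference stayed between 0.80 and 0.96.

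The other 2 ratios overlapped between the groups. The ratio of Cebpb to Cebpa was 0.250 ± 0.175 in Con-Veh and 0.220 ± 0.046 in Con-DHT, with p = 1.0 in the exact permutation test. The ratio of Onecut2 to Onecut1 was 16.5 ± 8.63 and 12.8 ± 3.44, with p = 0.571 in the exact permutation test and 0.857 after adjustment. The high Con-Veh value of this ratio came from Con-Veh 2, at 29.4 against 11.3 to 13.4 in the other 3 libraries.

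**Figure D3:**
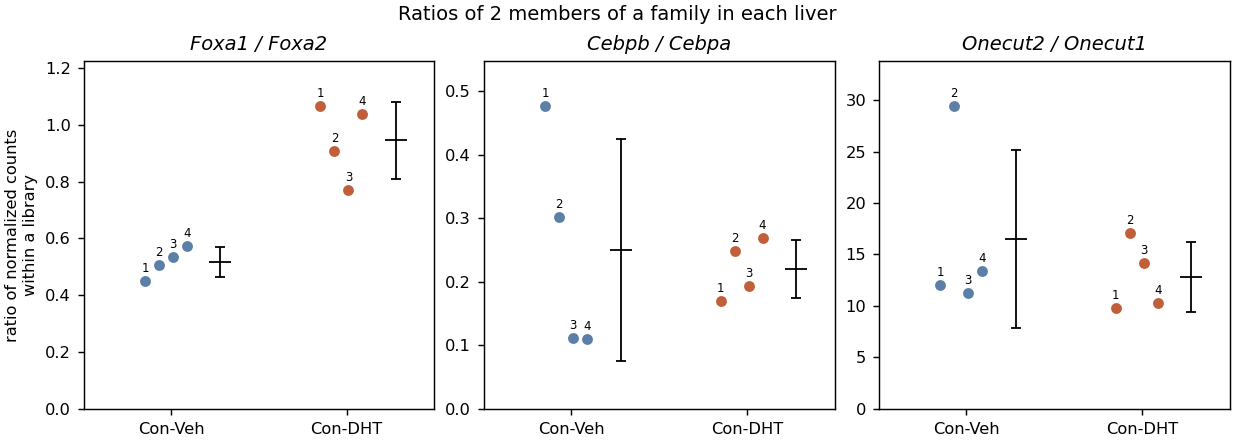
Ratio of normalized counts of 2 members of a family within each library, with the replicate number beside each point and the mean and SD of 4 mice as a black bar; the axes start at 0. Foxa1 over Foxa2 was at most 0.574 in Con-Veh and at least 0.771 in Con-DHT, whereas the groups overlap in the other 2 panels.

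As shares of the summed level per kb of the 3 genes, Foxa2 made up 35.3% ± 4.46 in Con-Veh and 25.4% ± 3.21 in Con-DHT (SD, n = 4 each). Foxa1 made up 13.0% ± 2.12 and 16.9% ± 1.35, and Foxa3 made up 51.7% ± 6.33 and 57.7% ± 3.39. The order Foxa3, Foxa2, Foxa1 was the same in all 8 livers. These shares depend on exon lengths of the annotation and were not tested.

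The 3 genes whose log2 values followed Foxa2 most closely over the 8 libraries, among 10725 genes with a mean of at least 50, were Ddrgk1 (Pearson r of 0.973), Sat1 (0.970) and Zfp758 (0.964). The libraries are the same ones that separate the groups, so this is a description and has no p. Ddrgk1, which acts in protein ufmylation, was at 2499 ± 113 in Con-Veh and 2213 ± 113 in Con-DHT (SD, n = 4 each). Sat1, which acetylates spermidine and spermine, was at 1234 ± 71.1 and 1015 ± 91.8. None of the 3 passed the test, with adjusted p of 0.149, 0.0647 and 0.251 (limma, Benjamini-Hochberg). Each was lower in every Con-DHT liver than in every Con-Veh liver, as were 6.62% of all tested genes. Genes picked for their likeness to Foxa2 tend to separate the groups as it does, so this adds no support.

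To show the DNA around the starts of these genes, the 250 bases upstream of each RefSeq start (GRCm38.p6) were searched on both strands for ATTGATT (ONECUT), TGTTTAC (FOXA), TTGCNNAA (C/EBP) and TTCNNNGAA (STAT5). Any window of Onecut2 was left out of the search by choice, so nothing is known here of its matches. The other 7 members had 10 windows in all. Of 32851 windows of all genes, 2.61% held the ONECUT letters, 3.17% the FOXA letters, 9.56% the C/EBP letters and 7.02% the STAT5 letters. Among the windows of these 7 members, 3 held a match. They are printed 5′ to 3′ on the gene's strand with the matched letters in capitals. They belong to the called member, to its opposite in the ratio and to the factor upstream of many liver genes. The upstream window of Foxa2 (chr2:148046970-148047219, minus strand) held ATTGATT from 213 bases before the start, and that of Hnf4a (chr2:163506607-163506856, plus strand) held its reverse complement from 60 bases before the start. The window of Foxa1 (chr12:57546112-57546361, minus strand) held the reverse complement of TGTTTAC from 141 bases before the start. Foxa2 has 3 RefSeq starts and Hnf4a has 2, and the windows of their other starts held no match. The gene counts do not show which start these livers used.
Foxa2: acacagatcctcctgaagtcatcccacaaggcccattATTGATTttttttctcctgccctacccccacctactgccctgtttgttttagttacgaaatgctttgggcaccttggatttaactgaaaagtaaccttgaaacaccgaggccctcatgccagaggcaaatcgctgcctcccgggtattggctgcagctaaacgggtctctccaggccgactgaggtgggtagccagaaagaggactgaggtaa
Hnf4a: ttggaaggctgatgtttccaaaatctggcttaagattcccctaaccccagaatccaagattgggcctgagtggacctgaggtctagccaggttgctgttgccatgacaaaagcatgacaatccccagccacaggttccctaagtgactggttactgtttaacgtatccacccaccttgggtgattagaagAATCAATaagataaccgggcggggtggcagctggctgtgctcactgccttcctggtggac
Foxa1: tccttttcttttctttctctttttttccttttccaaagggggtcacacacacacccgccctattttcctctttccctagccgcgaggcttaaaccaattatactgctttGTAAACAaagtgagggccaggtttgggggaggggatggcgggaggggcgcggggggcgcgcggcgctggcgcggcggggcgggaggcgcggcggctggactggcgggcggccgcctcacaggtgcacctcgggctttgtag
A match of letters is not a measured binding site.

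ONECUT1 (HNF6) activates Foxa2 and Hnf4a in the developing liver and is known to respond to growth hormone. Onecut1 (ENSMUSG00000043013, chromosome 9) had normalized counts of 141, 58.9, 138 and 104 in Con-Veh 1 to 4 and of 172, 84.2, 116 and 161 in Con-DHT 1 to 4. Replicate 2 was the lowest of each group, and the ranges overlapped broadly. The means were 110.4 ± 38.1 and 133 ± 40.6 (SD, n = 4 each), with a log2 fold change of 0.29 (SE 0.30, 95% interval -0.38 to 0.96) and an adjusted p of 0.614 (limma, Benjamini-Hochberg). These values rested on 61 to 175 reads per library, where counting alone gives a coefficient of variation of 12.8% at 61 reads. Between mice the coefficient of variation was 34.5% in Con-Veh and 30.4% in Con-DHT. A change of any size within the interval was not excluded. In GENCODE M21, 2171 exon bases of Onecut1 are shared with the lincRNA Gm20649 on the same strand, and how reads in shared bases were assigned is not given in the sources used here.

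Onecut2 (ENSMUSG00000045991, chromosome 18) had 1687, 1729, 1551 and 1396 in Con-Veh 1 to 4 and 1678, 1436, 1647 and 1652 in Con-DHT 1 to 4. The Con-DHT livers all lay within the Con-Veh range. The means were 1591 ± 151 and 1603 ± 112 (SD, n = 4 each), and the log2 fold change was 0.01 (SE 0.09, 95% interval -0.18 to 0.21, adjusted p 0.948, limma with Benjamini-Hochberg). This was the narrowest interval of the 8 members.

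Cebpa, the factor that activates genes of glycogen, urea and lipid metabolism (ENSMUSG00000034957, chromosome 7), had 7314, 9107, 11628 and 8534 in Con-Veh 1 to 4 and 11113, 9448, 11983 and 10188 in Con-DHT 1 to 4. Con-Veh 3 lay among the Con-DHT livers, and the other 3 Con-Veh livers were the lowest of all. The means were 9146 ± 1816 and 10683 ± 1102 (SD, n = 4 each), and the log2 fold change was 0.24 (SE 0.14, 95% interval -0.07 to 0.55) with an adjusted p of 0.341 (limma, Benjamini-Hochberg).

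Cebpb (ENSMUSG00000056501, chromosome 2) was the most variable member in Con-Veh, with 3479, 2749.6, 1306 and 938 in Con-Veh 1 to 4. Con-DHT 1 to 4 had 1889, 2340.0, 2317 and 2740.4, between the high pair and the low pair of Con-Veh livers. The highest value was 3.71 times the lowest in Con-Veh and 1.45 times in Con-DHT, and this difference in spread was not tested. The means were 2118 ± 1198 and 2321 ± 348 (SD, n = 4 each), with a log2 fold change of 0.31 (SE 0.36, 95% interval -0.47 to 1.10) and an adjusted p of 0.650 (limma, Benjamini-Hochberg). Without Con-Veh 4 the log2 fold change was -0.012. Of its exon bases, 312 overlap Tmem189 on the opposite strand, and 51 of those of Cebpa overlap the antisense gene Gm45091, where reads cannot be told apart without strand.

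The high Cebpb values of Con-Veh 1 and Con-Veh 2 came with high values of several acute phase transcripts from the list of C/EBP targets, which are named here after their values were seen. Orm1, which encodes orosomucoid, was at 11137 and 11552 in these libraries, at 3226 and 3844 in Con-Veh 3 and Con-Veh 4, and between 3051 and 5276 in Con-DHT. Haptoglobin (Hp) was at 102455 and 120069, then at 52889 and 52874, and between 41524 and 74999 in Con-DHT. Within Con-DHT, Con-DHT 3 had the highest Orm1, Orm2, Hp and Saa1, but Con-DHT 4 had the highest Cebpb. The part of these libraries in the results was not tested. When both were left out, an alternative chosen after seeing the data, Foxa2 had a log2 fold change of -0.61 and an adjusted p of 0.0963 (limma, Benjamini-Hochberg), the log2 difference of the Foxa1 to Foxa2 ratio was 0.76, and 509 genes were called in all. Cebpb was then the called member, with a log2 fold change of 1.06 and an adjusted p of 0.0137 (limma, Benjamini-Hochberg), but the libraries left out were chosen by transcripts that move with it, so that this value is not a test of Cebpb.

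**Figure D4:**
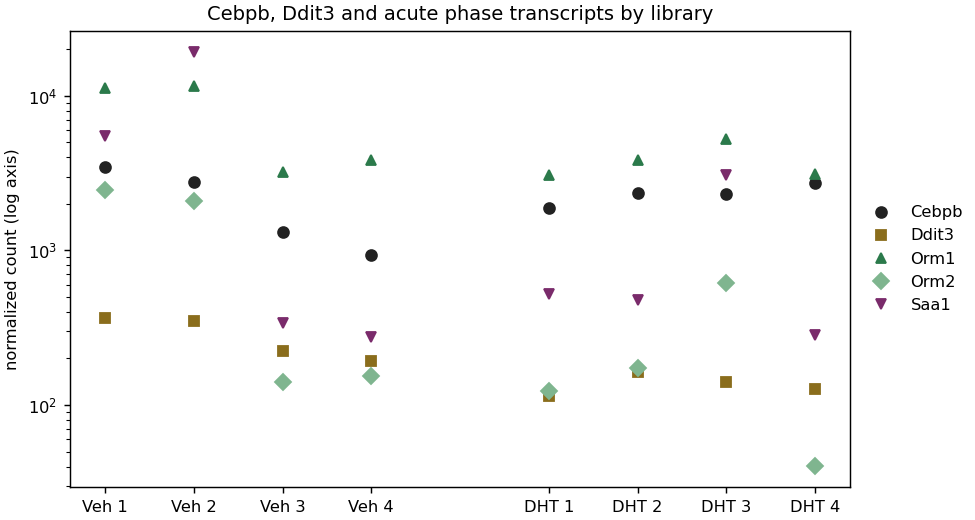
Normalized counts (log axis) of Cebpb, Ddit3 and the acute phase transcripts Orm1, Orm2 and Saa1 in each of the 8 libraries. Con-Veh 1 and Con-Veh 2 have the highest values of all 5 genes, and Saa1 runs from 277 to 19178.

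Of the C/EBP relatives of the members, Cebpd and Cebpg were tested and neither passed. Cebpd, which like Cebpb takes part in the acute phase response, was at 151 ± 42.3 in Con-Veh and 180.3 ± 35.2 in Con-DHT (SD, n = 4 each), with a log2 fold change of 0.29 (95% interval -0.21 to 0.78) and an adjusted p of 0.493 (limma, Benjamini-Hochberg). Cebpg, a C/EBP protein without an activation domain, was at 955 ± 113 and 822 ± 41.5, with a log2 fold change of -0.21 (95% interval -0.42 to -0.0047) and an adjusted p of 0.204 (limma, Benjamini-Hochberg). The groups overlapped for both genes.

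**Figure D5:**
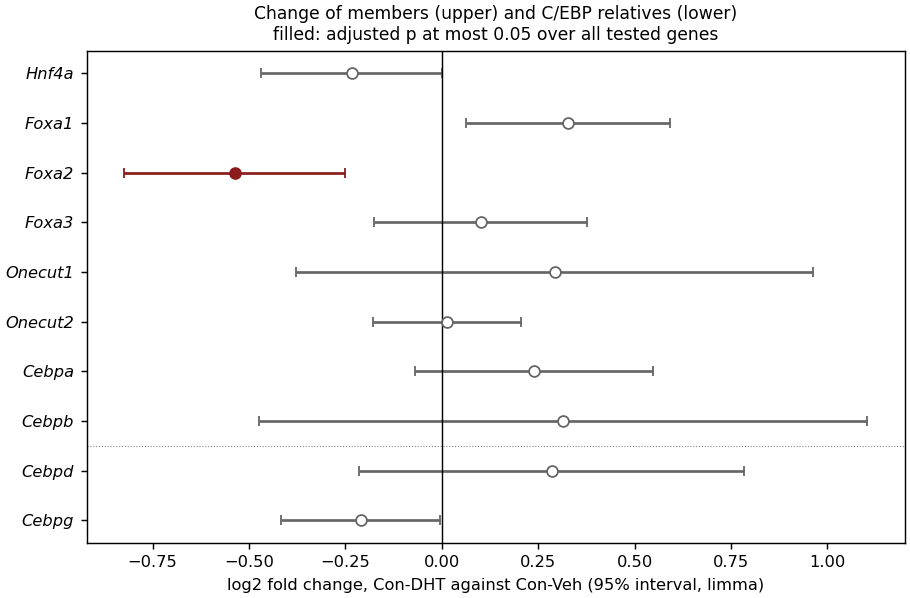
Log2 fold change of Con-DHT against Con-Veh for the 8 members (upper) and the relatives Cebpd and Cebpg (lower), with the 95% interval from limma; a filled point had an adjusted p of at most 0.05. Foxa2 at -0.54 is the filled point, and the intervals of Onecut1 and Cebpb are the widest.

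Among 7 regulators and dimer partners of these factors, 1 was higher and 1 was lower, beside 4.6% and 2.61% of all tested genes. Ddit3 (CHOP), a C/EBP protein that forms dimers with C/EBPα and C/EBPβ, was at 367, 349, 223 and 193 in Con-Veh and at 115, 164, 141 and 126 in Con-DHT. All Con-DHT livers lay below all Con-Veh livers, and the 2 highest values were again those of Con-Veh 1 and Con-Veh 2. Its log2 fold change was -1.01 (SE 0.21) with an adjusted p of 0.0191 (limma, Benjamini-Hochberg), which was above the threshold without Con-Veh 2 (0.0548), without Con-DHT 1 (0.0551) and with spike-in scaling (0.146). Trib3, a pseudokinase of the stress response, was at 158 ± 24.2 in Con-Veh and 283 ± 19.9 in Con-DHT (SD, n = 4 each), a log2 fold change of 0.85 (SE 0.12) with an adjusted p of 0.00273 (limma, Benjamini-Hochberg). The Trib3 call held in all 8 fits without 1 library and in all 11 other planned settings. Atf4, Trib1, Trib2, Nr0b2 and Ppargc1a did not pass.

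Of 25 other transcription factors of hepatocytes, 1 was higher and 2 were lower, beside 4.6% and 2.61% of all tested genes, with a median log2 fold change of 0.02. Bcl6, a repressor linked to the male pattern of hepatic genes, was at 649 ± 163 in Con-Veh and 1255 ± 399 in Con-DHT (log2 fold change 0.93, adjusted p 0.0453, limma with Benjamini-Hochberg), and its call was lost in 6 of 8 fits without 1 library. Nfia, a nuclear factor I protein, was at 1123 ± 74.3 and 858 ± 53.5 (SD, n = 4 each), a log2 fold change of -0.39 (SE 0.08) with an adjusted p of 0.0134 (limma, Benjamini-Hochberg) that stayed under the threshold in all 8 such fits. With spike-in scaling the Nfia call was lost, at a log2 fold change of -0.19 and an adjusted p of 0.925, as was that of Gata6, at -0.57 and 0.544. Gata6, a zinc finger factor, was at 284 ± 70.6 and 165 ± 30.6, with a log2 fold change of -0.77 and an adjusted p of 0.0387 (limma, Benjamini-Hochberg) that held in 2 of 8. Cux2, a cut-homeodomain relative of the ONECUT factors known as female-biased in mouse liver and named after its values were seen, did not pass (adjusted p 0.0783, limma with Benjamini-Hochberg). It was at 1001, 563, 562 and 768 in Con-Veh and at 30.4, 33.9, 374 and 392 in Con-DHT. The Con-DHT livers fell into a very low pair and a middle pair, all below Con-Veh.

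Lists of textbook targets of the members are given beside the 7.21% of all tested genes that were called. Of 13 targets of HNF4A, 1 was lower and none was higher, a share near that of all genes, with a median log2 fold change of -0.03. That gene was F7, which encodes clotting factor VII, at 2846 ± 355 in Con-Veh and 1961 ± 228 in Con-DHT (SD, n = 4 each, log2 fold change -0.54, adjusted p 0.0170, limma with Benjamini-Hochberg). With spike-in scaling its log2 fold change was -0.34 and its adjusted p was 0.885, so that this call was lost. Of 8 listed targets of FOXA factors, 7 were tested and none passed (limma, with 0 also at an unadjusted p of 0.05). The remaining gene was listed as Tf, a symbol that was not found, so its level is not known here. The largest changes were those of Alb at -0.47 (95% interval -1.36 to 0.41) and Afp at -0.35 (-0.88 to 0.17). Of 6 targets of ONECUT1, Foxa2 itself was the 1 that passed, and the median was -0.17.

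Of 13 targets of C/EBP factors, 1 was called, again a share near that of all genes. Gys2 was higher, and 9 of the 13 had values below 0, with a median log2 fold change of -0.47. The acute phase genes of this list vary widely between the Con-Veh libraries. Gys2, the liver glycogen synthase, was at 1862, 1819, 2343 and 1943 in Con-Veh 1 to 4 and at 4036, 4508, 3974 and 3110.0 in Con-DHT 1 to 4. The lowest Con-DHT liver was above the highest Con-Veh liver. The log2 fold change was 0.97 (SE 0.12) with an adjusted p of 0.00135 (limma, Benjamini-Hochberg), and the call held in all 8 fits without 1 library and in all 11 other planned settings.

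Markers of other cells of the liver moved beside these results. All 6 Kupffer cell markers were lower on the log2 scale, 3 of them (Clec4f, Cd5l and Vsig4) past the test, and their summed normalized counts were 5357 to 6766 in Con-Veh and 3636 to 4932 in Con-DHT. All 4 sinusoidal endothelial markers were lower, 2 of them (Stab2 and Lyve1) past the test, with sums of 2520 to 2807 and 1665 to 2038. Of all tested genes, 2.61% were called lower. With edgeR the call of Lyve1 was lost (adjusted p 0.0518, Benjamini-Hochberg), and the other called markers of both lists kept theirs. None of the 5 hepatocyte, 5 tested cholangiocyte or 5 stellate cell markers passed (limma). The hepatocyte markers were abundant in every library, with Alb between 539803 and 1275380.0. In whole liver, fewer cells of a type and less RNA per cell cannot be told apart, and the part of these markers in the results for Foxa2 and Gata6 was not tested.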

How the data were processed

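RNA from 8 livers (4 Con-Veh, 4 Con-DHT, 1 library per mouse) was sequenced. The submitters' processing notes name Trimmomatic, STAR, featureCounts of Subread, DESeq2 and the build GRCm39. The authors deposited a normalized signal: reads per gene divided by the size factor of the library, for 14371 features, of which 54 are spike-ins. Each value was a whole multiple of the library's smallest step, within 0.001, for 100% of values, and the recovered reads ranged from 13123962 to 17815944. No mouse gene had fewer than 81 reads over all libraries. Exon lengths came from GENCODE M21 and promoters from RefSeq, both GRCm38, so positions in the genome are given for that build alone.

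The main test was limma 3.58.1 (R 4.3.3; trend in eBayes) on log2(value + 1) in the 14312 mouse genes whose mean was 10 or more. Benjamini-Hochberg adjustment was over all of them, with a threshold of 0.05. The pseudocount of 1 understates changes of low genes. On the recovered reads edgeR 4.0.16 called 1024 genes and DESeq2 1.42.0 called 1569. Ratios were tested by exact two-sided permutation over 70 arrangements (Python 3.11.15, scipy 1.17.1). Alternatives were each library left out in turn, a replicate block, edgeR, DESeq2, limma with no trend, other scalings (upper quartile, total without Mup genes, spike-ins), a minimum mean of 50 or none, and pseudocounts of 0.1 and 5. Scripts were tested on simulated data.

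The members and lists were chosen with earlier results of these data known. Named were all members, the 3 genes most like the member with the smallest adjusted p, and from each list the called genes (at most 6) or otherwise the 2 largest changes; some listed genes are not reported here. Libraries of a group differed beyond sampling noise (chi-square per degree of freedom 19.2 to 61.6 over 12 pairs) and each counted as 1 replicate. Of the marker lists, 0 of 4 neutrophil markers and 1 of 5 lymphocyte markers (Ighm, not called) were among the genes analysed here.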

Additional observations from a re-analysis of the deposited data

Results flagged for a closer look

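Of 42 sets of 4 values examined (each member, named list gene and ratio in each group), 1 had a library far from the other 3. Onecut2 was at 1436 normalized counts in Con-DHT 2 and at 1647 to 1678 in the other Con-DHT libraries, so that the gap to the nearest value was 0.874 of the whole range, above Dixon's 95% critical value for 4 samples. Chance gives such a gap in about 1 of 20 groups. Without Con-DHT 2 the log2 fold change of Onecut2 was 0.07 and still did not pass the test.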

How the results depend on the processing

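Of the 8 members, Foxa2 stayed lower in every alternative run and kept its call in 8 of 11 settings. The call was lost with equal totals without the Mup genes (log2 fold change -0.44, adjusted p 0.0634), spike-in scaling (-0.34, 0.885) and no intensity trend (-0.54, 0.0707), leaving 0 members called in each; the cause was not tested. Spike-in scaling also ended the calls of Nfia, Gata6, F7 and Ddit3. Under it every gene takes on the spread of the spike-in share, which was 1.68% to 3.61% of reads within Con-Veh. The count over all genes was 648 with a mean of at least 50, where fewer genes were tested, 637 with spike-in scaling and 1569 with DESeq2. The share of calls that were higher in Con-DHT was 63.8%, against 83.9% with equal totals without the Mup genes and 88.2% with spike-in scaling, which moved the median log2 fold change of all genes to 0.09 and 0.19. Leaving out 1 library gave 638 to 897 genes, 0 to 1 members (Foxa1 in place of Foxa2 without Con-Veh 3), and log2 fold changes of -0.65 to -0.45 for Foxa2, 0.26 to 0.44 for Foxa1, -0.048 to 0.07 for Onecut2 and -0.012 to 0.62 for Cebpb. The ratio of Cebpb to Cebpa ranged from -0.22 to 0.48 and that of Onecut2 to Onecut1 from -0.43 to 0.035 (log2). With 3 against 4 libraries the smallest adjusted p over the 3 ratios was 0.171. Leaving out Con-Veh 1 and Con-Veh 2 together, added after seeing the data, gave 509 genes, -0.61 for Foxa2 (adjusted p 0.0963), 0.14 for Foxa1, 0.12 for Onecut2, 0.025 for the ratio of Onecut2 to Onecut1, 0.96 for that of Cebpb to Cebpa, and 1 called member, which was Cebpb (1.06, adjusted p 0.0137); these libraries were chosen by transcripts that move with Cebpb, so that value is not a test of it. Nfia, Gata6, Bcl6, F7 and Ddit3 lost their calls there (adjusted p of at most 0.263), and Trib3 and Gys2 kept theirs. No sign was seen that the labels' replicate numbers pair the mice: same-numbered libraries correlated at -0.19 to -0.01, and 0 of 4 Con-Veh libraries correlated best with its own number. With so few libraries this check cannot exclude a pairing. With the replicate block 700 genes were called, Foxa2 kept its call (adjusted p 0.0170) and Bcl6 and Nfia lost theirs (0.0549 and 0.0545). The blocked p of a ratio cannot go below 0.125. Depth limits Onecut1 most, with as few as 61 reads.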
